A study of Mus musculus with 6 samples.

Results

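The Smad family comprises the proteins that carry signals of bone morphogenetic proteins (BMPs), TGF-beta and activins from receptors at the cell surface to the nucleus. Its 8 mouse genes, Smad1 to Smad7 and Smad9, were followed here in whole lung RNA, out of 18194 genes that the array platform names with a single symbol. A probe set was taken as a member when its only gene symbol was one of these 8, which gave 18 probe sets out of 45101. Of the 18, 16 were bright enough to be tested, covering 7 of the 8 genes, and the probe set of Smad9 and 1 of 3 probe sets of Smad3 were too dim for the main fit.

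Ligand-bound receptors phosphorylate the receptor-regulated Smads, which then join the common Smad, Smad4, and enter the nucleus to control transcription. Smad1, Smad5 and Smad9 serve the BMP receptors, and Smad2 and Smad3 serve the TGF-beta and activin receptors. Smad6 and Smad7 are inhibitory members that are themselves induced by these pathways and dampen them. In the lung vasculature, loss-of-function mutations of the BMP receptor BMPR2 are the best known genetic cause of pulmonary arterial hypertension. Arrays read the amount of Smad mRNA and not the phosphorylation through which Smad proteins are activated.

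The study profiled RNA of the right lung of 6 mice of strain FVB/N, stated to be female in the series design, on an Affymetrix mouse genome array for each. All 6 mice, controls included, carried SM22-rtTA, a doxycycline-dependent transactivator under the promoter of a smooth muscle gene, and all received doxycycline for 9 weeks, beginning at 4 weeks of age, until death at 13 weeks. The 2 controls carried that transgene alone. The other 4 mice were heterozygous for it and for TetO7-BMPR2-R899X, which encodes a BMPR2 cut short in its cytoplasmic tail by the mutation R899X. Of these, 2 had near normal right ventricular systolic pressure (R899X normal RVSP) and 2 had substantially raised pressure (R899X high RVSP). Because the promoter confines the transgene mainly to smooth muscle while whole lung was measured, Smad mRNA of all other lung cells is included in each value, and in such a homogenate fewer cells of a type and less RNA per cell cannot be told apart.

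The arrays differed in the ratio of a control gene and in markers of other tissues. Lung markers were present throughout, with all 5 alveolar type 2 markers on the array and all 7 endothelial markers above the brightness limit. The 3'/5' ratio of the beta-actin control probe sets, a sign of RNA integrity and labelling, was 1.89 in control 1 and 1.64 in R899X normal RVSP 1, against 1.27 to 1.45 on the other 4 arrays. The same ratio for Gapdh did not set these 2 arrays apart. It was 0.973 in control 1 and 0.7 in R899X normal RVSP 1, against 0.721 to 1.03 on the other 4 arrays. Markers of liver, which is not part of lung, were summed over 3 of 3 listed genes (Alb, Apoa2 and Serpina1c, none of them at 0): they came to 327 and 4558 in control lungs, 248 and 565 in R899X lungs at normal RVSP and 210 and 886 in those at high RVSP. The high sum was that of control 2. Cardiac muscle markers, 9 of 9 on the array and none at 0, summed to 10578 in R899X high RVSP 2 and to 21487 in R899X high RVSP 1, against 22602 and 31491 in R899X lungs at normal RVSP and 23156 and 26092 in control lungs. The part of these array differences in the Smad results was not tested beyond the fits that leave arrays out or include the beta-actin ratio.

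Values below are deposited intensities, in arbitrary units that can be compared between arrays for 1 probe set but not between probe sets. Differences are of log2(intensity + 16), which understates the change of dim probe sets, with the standard error after ±. They come from limma fitted to all 27022 bright enough probe sets, with adjustment by the Benjamini-Hochberg method over all of them. Precision was limited by the 2 mice of each group: the median standard error of a Smad difference between 2 groups was 0.19. Fits without control 1 and R899X normal RVSP 1 leave their groups 1 array each, which is then assumed to vary like the others.

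No Smad probe set passed the adjusted threshold of 0.05 in any comparison. In R899X normal RVSP mice against controls 0 of 16 passed (0% of all 27022 probe sets did), and 0 of 16 had an unadjusted limma p under 0.05 (4.34% of all did). In R899X high RVSP mice against controls 0 of 16 passed (0% of all) and 1 of 16 had such an unadjusted p (5.65% of all). Between R899X high and normal RVSP mice the counts were again 0 of 16 (0% of all) and 0 of 16 (2.62% of all). For all R899X mice against controls they were 0 of 16 (0% of all) and 1 of 16 (5.92% of all). The unadjusted counts depended on single arrays. When 1 array was left out, both the Smad counts and the shares of all probe sets moved in each comparison. Such a fit leaves a group with 1 array, so its counts are not given. An ordinary linear model also passed 0 Smad probe sets in each comparison. The smallest adjusted p of a Smad probe set was 0.987, 0.857, 0.9996 and 0.832 in these 4 comparisons.

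**Figure D1:**
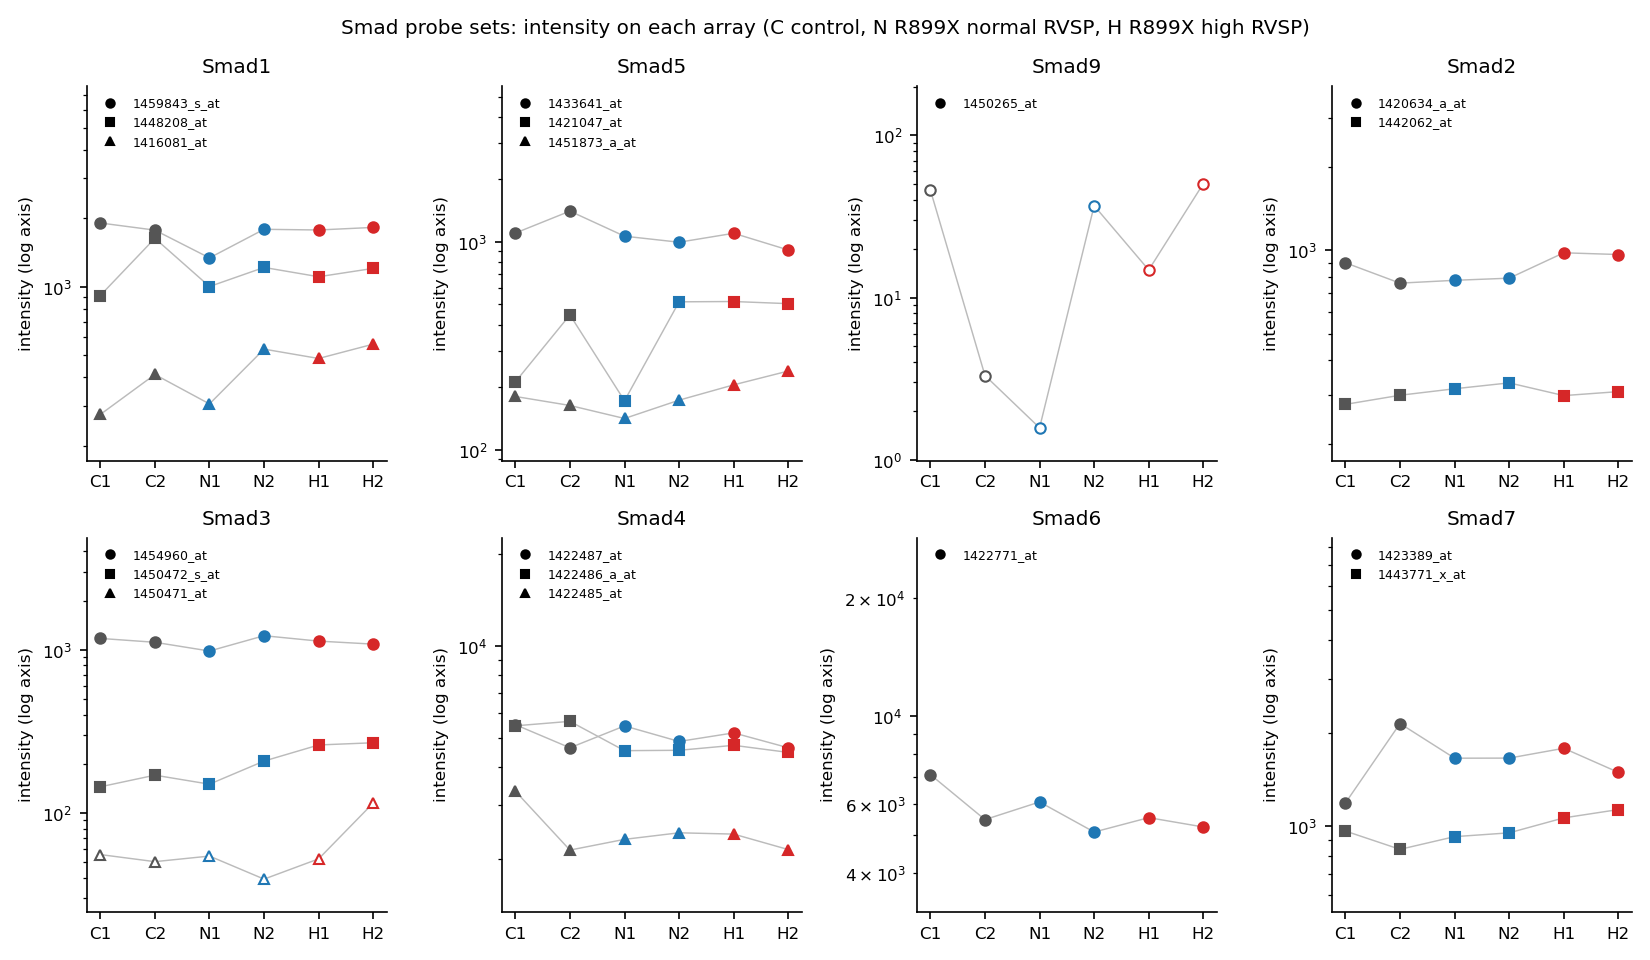
Deposited intensity (log axis) of the 18 Smad probe sets on each of the 6 arrays, by gene, with colours for the 3 groups, symbols for the probe sets of a gene and open symbols for the 2 probe sets too dim for the main fit; grey lines only join the points of 1 probe set. Smad6 lies between 5079 and 7107 on all arrays, while Smad5 1421047_at is low in control 1 and R899X normal RVSP 1 alone, and Smad9 does not exceed 50.4.

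Among the BMP-regulated Smads, Smad1 was read by 3 probe sets whose values did not run in parallel. The brightest, 1459843_s_at, read 1911 and 1777 in control lungs, 1342 and 1792 in R899X lungs at normal RVSP and 1780 and 1827 in those at high RVSP. R899X normal RVSP 1 was the low array, and the other 5 lay within 1777 to 1911. Its log2 mean was highest in controls (10.86 ± 0.07, SD, n = 2), then R899X high RVSP (10.83 ± 0.03) and R899X normal RVSP mice (10.61 ± 0.29), and neighbours in that order did not differ beyond their spread. The R899X high RVSP difference from control was -0.03 ± 0.18, with a 95% interval from -0.44 to 0.38. Without R899X normal RVSP 1 and control 1 the normal RVSP difference from control, -0.25 ± 0.18, became 0.01. The suffix of 1459843_s_at marks a probe set that can match transcripts of more than 1 gene, which limits what it says of Smad1 alone.

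The second Smad1 probe set, 1448208_at, read 917 and 1636 in control lungs, 1004 and 1218 in R899X lungs at normal RVSP and 1109 and 1207 in those at high RVSP. The 4 R899X arrays all lay between the controls, so the widest gap was within the control group. The third, 1416081_at, read 275 and 412 in control lungs, 306 and 533 in R899X lungs at normal RVSP and 485 and 561 in those at high RVSP. Here both high RVSP mice lay above both controls, with a difference of 0.61 ± 0.30 (95% interval -0.09 to 1.30, adjusted p = 0.857 in limma). Control 1 and R899X normal RVSP 1, the arrays with the highest beta-actin ratios, had the lowest values. That difference was 0.33 without these arrays and -0.0096 ± 0.26 after adjustment for the ratio. The ratio was higher in the controls (1.89 and 1.45) than in the high RVSP mice (1.36 and 1.27). The adjusted fit therefore cannot fully tell the ratio from the group.

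Smad5, the close relative of Smad1, also had 3 tested probe sets. They pointed in opposite directions in R899X high RVSP mice against controls, while all 3 were below 0 in R899X normal RVSP mice against controls. Its brightest, 1433641_at, read 1103 and 1407 in control lungs, 1065 and 997 in R899X lungs at normal RVSP and 1100 and 915 in those at high RVSP. All 4 R899X mice lay below both controls, although R899X high RVSP 1 was only just below control 1. The order of log2 means was control (10.30 ± 0.25, SD, n = 2), R899X normal RVSP (10.03 ± 0.07) and R899X high RVSP (9.99 ± 0.19). The difference of all R899X mice from control was -0.29 ± 0.16 (95% interval -0.66 to 0.08, adjusted p = 0.848 in limma). It was -0.46 without control 1 and -0.12 without control 2.

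The second Smad5 probe set, 1421047_at, varied most of all 16. It read 212 and 445 in control lungs, 172 and 515 in R899X lungs at normal RVSP and 517 and 505 in those at high RVSP. It was low on the 2 arrays with high beta-actin ratios, 1 of them from a control and 1 from an R899X mouse, and lay between 445 and 517 on the other 4. Its residual spread within groups was 0.74 on the log2 scale, which 2.18% of all tested probe sets exceeded. The R899X high RVSP difference from control was 0.70 ± 0.49, and it ranged from 0.19 without control 1 to 1.21 without control 2, and was -0.41 after adjustment for the beta-actin ratio. The dimmest, 1451873_a_at, read 180 and 163 in control lungs, 141 and 173 in R899X lungs at normal RVSP and 205 and 239 in those at high RVSP. The high RVSP mice were above the other 4 on this probe set, by 0.34 ± 0.24 against controls and by 0.46 ± 0.24 against normal RVSP mice (95% interval -0.09 to 1.01).

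Smad9, the third Smad of the BMP branch, was read by 1 probe set, 1450265_at. Control lungs read 46.0 and 3.31, R899X lungs at normal RVSP 1.57 and 36.9, and those at high RVSP 14.8 and 50.4. All lay below the brightness limit of about 74.9, and the probe set ranked at the 16.1 percentile of mean brightness, so it was left out of the main fit. Without the brightness filter its R899X high RVSP difference from control was 0.39 ± 0.72 (adjusted p = 0.974 in limma), a value not read as a change at this brightness.

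BMP-regulated Smads bind GC-rich elements such as GGCGCC, so the promoter windows of the family's own genes were searched for these letters. Stretches are shown where the match lies wholly in the 250 bases before an annotated start. RefSeq promoter sequences of build GRCm38.p6 were matched for 5 of the 8 genes (Smad1, Smad3, Smad5, Smad6 and Smad9), each window 300 bases long around an annotated start. The letters GGCGCC, which read the same on both strands and were matched exactly, occurred in 3 of the 7 windows of these genes (42.9%), against 11.9% of all 32851 windows, and in 2 of the 5 genes, against 13.4% of all 27025 genes. The match in the remaining window does not lie wholly in those 250 bases and is not shown. Both stretches shown are from the plus strand, at chr13:56703021-56703050 for Smad5 and chr3:54755519-54755548 for Smad9, with the motif in capitals 19 and 51 bases before an annotated start.
Smad5: ccccggcgagcgGGCGCCgagcgcttgtcc
Smad9: gcacggccgcctGGCGCCcttccagcgcgg
A match is a description of the letters in this window. Smad1, Smad3 and Smad6 had no match in theirs.

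Of the TGF-beta-regulated Smads, Smad2 gave 2 tested probe sets with little spread. The brighter, 1420634_a_at, read 901 and 761 in control lungs, 779 and 793 in R899X lungs at normal RVSP and 979 and 965 in those at high RVSP. Both high RVSP mice exceeded the other 4, and replicates agreed within 0.03 log2 units in each R899X group against 0.24 between the controls. The log2 means were 9.95 ± 0.01 (SD, n = 2) in R899X high RVSP mice, 9.72 ± 0.17 in controls and 9.65 ± 0.02 in R899X normal RVSP mice. The difference between high and normal RVSP was 0.30 ± 0.17 (95% interval -0.08 to 0.69, adjusted p = 0.9996 in limma), and it was 0.29 without the arrays of high beta-actin ratio. The dimmer, 1442062_at, lay between 278 and 332 on all arrays. On it both R899X normal RVSP mice were above both controls and both high RVSP mice, by 0.16 ± 0.20 and 0.09 ± 0.20.

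Smad3, the other Smad of this branch, had 1 tested probe set that stood higher at high RVSP and 1 that did not. Probe set 1450472_s_at read 144 and 170 in control lungs, 150 and 207 in R899X lungs at normal RVSP and 260 and 269 in those at high RVSP. Both high RVSP mice were above the other 4 arrays, by 0.70 ± 0.25 against controls (95% interval 0.13 to 1.27, adjusted p = 0.857 in limma) and by 0.54 ± 0.25 against normal RVSP mice (95% interval -0.03 to 1.11). Among all 27022 probe sets, 5.02% had a larger absolute difference from control. The difference from control was 0.59 without control 1 and R899X normal RVSP 1, and 0.41 after adjustment for the beta-actin ratio.

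The brightest Smad3 probe set, 1454960_at, did not share that pattern. It read 1171 and 1109 in control lungs, 980 and 1217 in R899X lungs at normal RVSP and 1128 and 1081 in those at high RVSP, with the R899X normal RVSP mice at both extremes. Its log2 means were 10.18 ± 0.06 (SD, n = 2), 10.11 ± 0.22 and 10.13 ± 0.04, and the high RVSP difference from control was -0.05 ± 0.17 (95% interval -0.44 to 0.35). The third probe set, 1450471_at, was too dim for the main fit, at 39.2 to 55.4 on 5 arrays and 115 on R899X high RVSP 2. The suffix _s_at marks probe sets that can match transcripts of more than 1 gene, which limits what 1450472_s_at says of Smad3 alone.

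Smad4, the partner of all receptor-regulated Smads, was bright on its 3 probe sets. The brightest, 1422487_at, read 5514 and 4632 in control lungs, 5462 and 4858 in R899X lungs at normal RVSP and 5183 and 4633 in those at high RVSP. The groups overlapped fully, with log2 means of 12.31 ± 0.18 (SD, n = 2), 12.34 ± 0.12 and 12.26 ± 0.11. The difference of all R899X mice from control was -0.0086 ± 0.14, with a 95% interval from -0.33 to 0.31.

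Probe set 1422486_a_at of Smad4 read 5466 and 5653 in control lungs, 4533 and 4545 in R899X lungs at normal RVSP and 4719 and 4473 in those at high RVSP. All 4 R899X mice were below both controls. The residual spread within groups was small, since 99.3% of all tested probe sets had a larger one. The difference itself was not unusual in size: for all R899X mice against controls, 26.1% of all tested probe sets had a larger absolute difference. The difference of all R899X mice from control was -0.28 ± 0.12 (95% interval -0.56 to -0.0087, adjusted p = 0.832 in limma). It lay between -0.31 and -0.26 in the fits that left out 1 array each, and was -0.31 without control 1 and R899X normal RVSP 1 and -0.29 after adjustment for the beta-actin ratio. With array medians centred, 0 Smad probe sets had an unadjusted limma p under 0.05 for all R899X mice against controls. The same held without the intensity trend. The third probe set, 1422485_at, gave 3339 and 2142 in the controls and 2150 to 2440 in the 4 R899X mice, which lay between the controls, with a difference of all R899X mice from control of -0.20 ± 0.19. All 3 Smad4 differences of R899X mice from control were below 0 with all 6 arrays, but those of 1422485_at and 1422487_at were 0.14 and 0.07 without control 1 and R899X normal RVSP 1, and that of 1422487_at was 0.02 with array medians centred. The arrays did not overlap on 1 of the 3, that with the suffix _a_at, which marks probe sets matching alternative transcripts of a gene.

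Smad6, the inhibitory member that acts mainly on the BMP branch, was bright on its single probe set, 1422771_at. It read 7107 and 5462 in control lungs, 6056 and 5079 in R899X lungs at normal RVSP and 5525 and 5232 in those at high RVSP. The highest value was that of control 1, and the groups overlapped. The log2 means were 12.61 ± 0.27 (SD, n = 2) in controls, 12.44 ± 0.18 in R899X normal RVSP and 12.40 ± 0.06 in R899X high RVSP mice, and neighbours in that order did not differ beyond their spread. The difference of all R899X mice from control was -0.19 ± 0.15 (95% interval -0.54 to 0.16), and -0.06 without control 1 and R899X normal RVSP 1.

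Smad7, which inhibits both branches, was read by 2 probe sets. The brighter, 1423389_at, read 1187 and 2145 in control lungs, 1657 and 1658 in R899X lungs at normal RVSP and 1784 and 1491 in those at high RVSP. All 4 R899X mice lay between the 2 controls, so its group means were close (10.66 ± 0.60, SD, n = 2, in controls, 10.71 ± 0.00065 in R899X normal RVSP and 10.69 ± 0.18 in R899X high RVSP mice) while the controls alone spanned 0.85. The R899X difference from control was 0.04 ± 0.23 with all arrays and -0.38 without control 1 and R899X normal RVSP 1. The liver marker sum was also highest in control 2, which was the lowest array on the other Smad7 probe set, and a link was not tested. The dimmer, 1443771_x_at, read 963 and 840 in control lungs, 923 and 950 in R899X lungs at normal RVSP and 1062 and 1130 in those at high RVSP. Both high RVSP mice were above the other 4, by 0.28 ± 0.16 against controls (95% interval -0.09 to 0.65). The suffix _x_at marks probe sets with probes that can match unrelated transcripts.

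**Figure D2:**
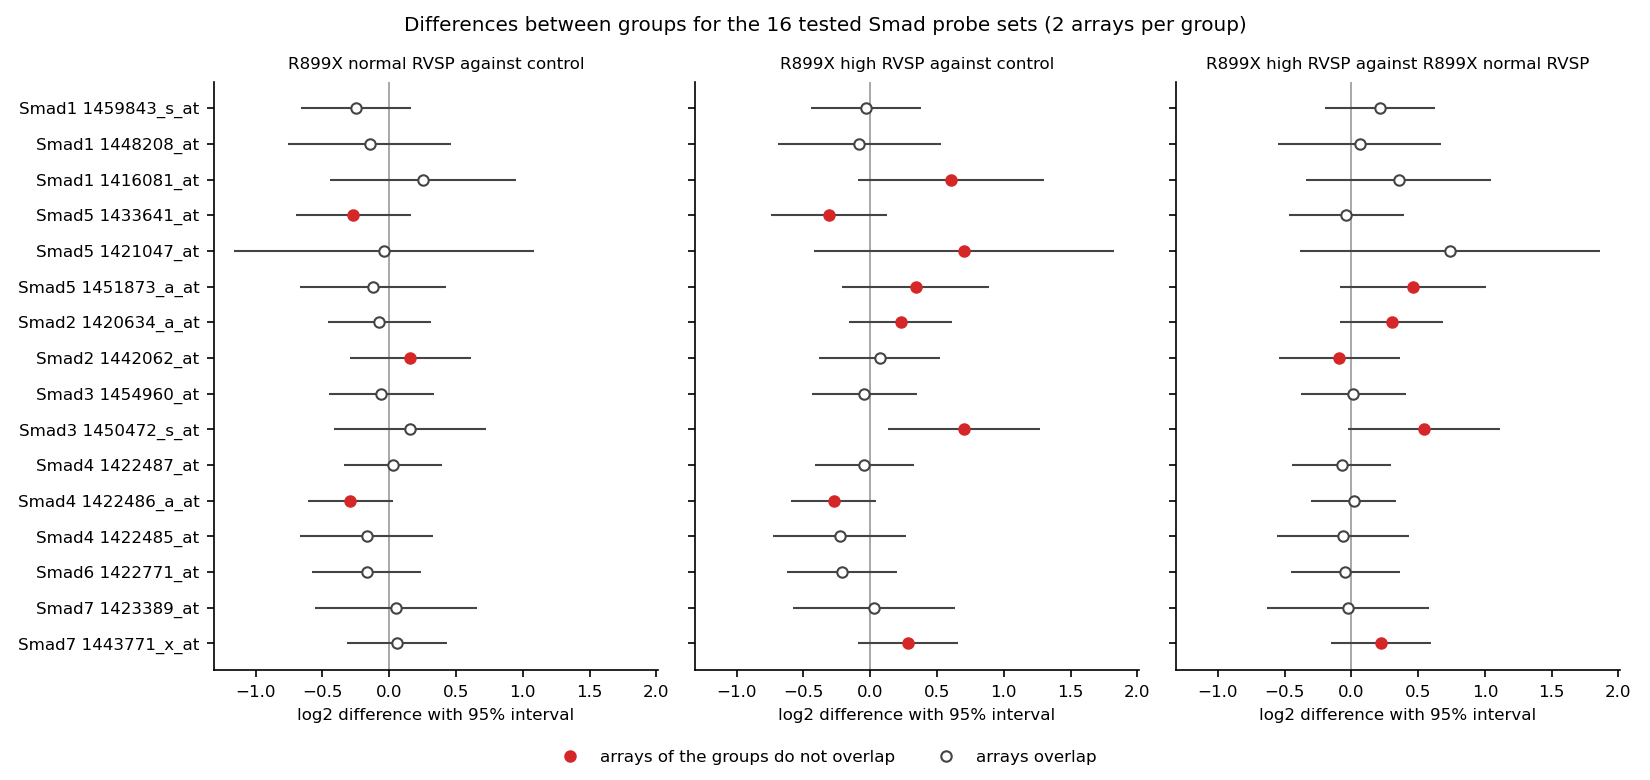
Log2 difference (point) with its 95% interval (line) for the 16 tested Smad probe sets in 3 comparisons of 2 arrays against 2; filled red points mark probe sets on which the arrays of the groups do not overlap. The interval of Smad3 1450472_s_at in R899X high RVSP against control, 0.13 to 1.27, is the only one plotted that lies wholly on one side of 0.

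The family as a whole can be set beside all tested probe sets. Between R899X high RVSP mice and controls the arrays did not overlap for 8 of 16 Smad probe sets (37.3% of all probe sets), 6 higher (19.1% of all) and 2 lower (18.2% of all). The 6 higher ones belonged to Smad1, Smad2, Smad3, Smad5 (2 of them) and Smad7, and the 2 lower ones to Smad4 and Smad5. In R899X normal RVSP mice against controls there were 3 of 16 without overlap (29.5% of all), 1 higher (14.4% of all) and 2 lower (15.1% of all). Between high and normal RVSP mice there were 5 of 16 (32.2% of all), 4 higher (16.7% of all) and 1 lower (15.5% of all). For all R899X mice against controls there were 2 of 16 (15.2% of all), 0 higher (7.52% of all) and 2 lower (7.71% of all), Smad4 1422486_a_at and Smad5 1433641_at. The comparisons with control share the same 2 control mice, so their counts are not independent of each other.

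The median Smad difference was -0.07 in R899X normal RVSP mice against controls, where the median over all probe sets was -0.00086. It was -0.00021 in R899X high RVSP mice against controls (all probe sets -0.0042), with 8 of 16 above 0, and 0.04 between high and normal RVSP mice (all probe sets 0.0081), with 10 of 16 above 0. Smad differences ranged from -0.29 to 0.25, from -0.31 to 0.70 and from -0.09 to 0.74 in these comparisons.

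**Figure D3:**
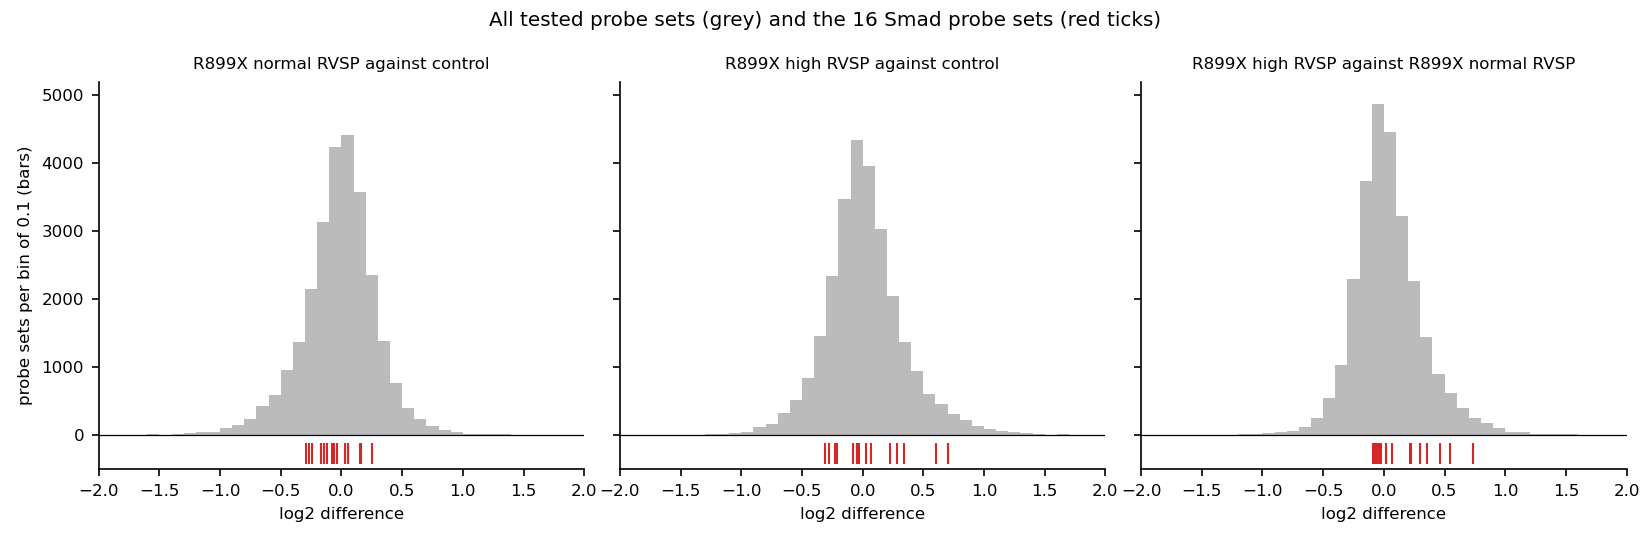
Number of tested probe sets (grey bars, bins of 0.1) by log2 difference in 3 comparisons, with the 16 Smad probe sets as red ticks below the axis; the axis shows -2 to 2. Smad ticks reach 0.70 in R899X high RVSP against control and 0.74 in high against normal RVSP, within the range of the grey bars.

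Probe sets of the same gene often differed in direction. Of the 6 Smad genes with more than 1 tested probe set, 3 (Smad2, Smad4 and Smad7) had all of them on one side of 0 in R899X high RVSP mice against controls, and 40.9% of 5937 genes with several probe sets did. For Smad5 the differences in that comparison ran from -0.31 to 0.70, a range of 1.01, for Smad3 from -0.05 to 0.70 and for Smad1 from -0.08 to 0.61. In R899X normal RVSP mice against controls 2 of the 6 genes (Smad5 and Smad7) had 1 sign throughout, against 44.8% of the 5937 genes.

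The arrays with the highest beta-actin ratios held the lowest or the highest values of some Smad probe sets, and likewise of probe sets over the whole array. Control 1 and R899X normal RVSP 1 were both below the other 4 arrays on 4 of 16 (12% of all probe sets), which were Smad1 1448208_at and 1416081_at, Smad3 1450472_s_at and Smad5 1421047_at. They were both above the other 4 on 2 of 16 (12.8% of all), Smad4 1422487_at and Smad6. On Smad5 1421047_at they deviated by -0.73 and -1.01 from the mean of the 6 arrays, while the other 4 lay between 0.29 and 0.50. These arrays belong to different groups, 1 of controls and 1 of R899X normal RVSP mice, and none of the high RVSP mice, so each comparison with high RVSP mice sets an array of high ratio on 1 side only.

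**Figure D4:**
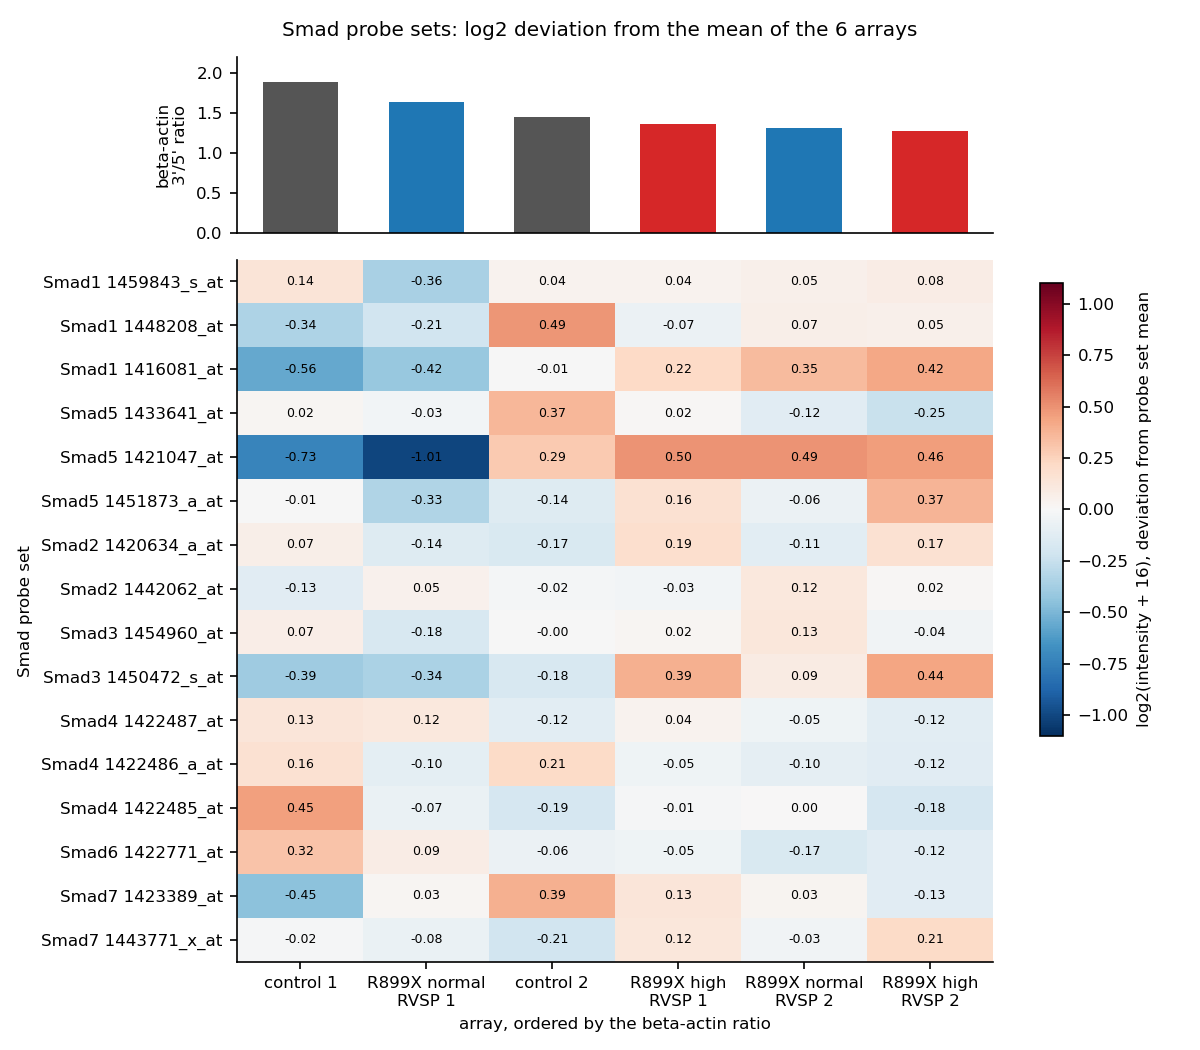
Top, 3'/5' intensity ratio of the beta-actin control probe sets on each array, coloured by group; bottom, log2 deviation of each tested Smad probe set from its mean over the 6 arrays, with arrays ordered by that ratio. Smad5 1421047_at and Smad1 1416081_at are lowest in the 2 arrays on the left (ratios 1.89 and 1.64), while Smad4 1422486_a_at is highest in control 1 and control 2.

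Other genes of the pathway were counted by role, each by its brightest probe set, and 0 passed the adjusted threshold in any comparison. Skil and Pmepa1 stand in 2 of the 5 lists. Of all 27022 probe sets, 49.9% were above 0 in R899X normal RVSP and 49.3% in R899X high RVSP mice against controls. Their medians were -0.00086 and -0.0042. Depending on the comparison, 2.62% to 5.92% of all had an unadjusted limma p under 0.05. Of 13 tested receptors and coreceptors (14 listed), 8 were above 0 in R899X normal RVSP and 6 in R899X high RVSP mice against controls, with medians of 0.02 and -0.0075. The 1 with an unadjusted p under 0.05 for all R899X mice was Acvrl1, an endothelial type I receptor that phosphorylates Smad1 and Smad5. It read 3094 and 2947 in control lungs, 3680 and 3899 in R899X lungs at normal RVSP and 3498 and 4088 in those at high RVSP, so all 4 R899X mice lay above both controls, by 0.32 ± 0.13 (adjusted p = 0.832 in limma). Of 18 regulators of Smad proteins, such as ubiquitin ligases and phosphatases, 8 and 6 were above 0 (medians -0.04 and -0.05), and 0 had an unadjusted limma p under 0.05 in any comparison.

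Of 16 tested nuclear partners (19 listed), 10 and 9 were above 0 (medians 0.06 and 0.08). Hdac1, a histone deacetylase of corepressor complexes, read 1853 and 1853 in control lungs, 2421 and 2494 in R899X lungs at normal RVSP and 2120 and 2341 in those at high RVSP. It was 0.40 ± 0.15 above control in normal RVSP mice (adjusted p = 0.987 in limma). Of 10 tested genes known to be induced by BMP through Smads (14 listed), such as the Id genes, 7 were above 0 in each R899X group against controls. The shares of all probe sets were 49.9% and 49.3%. Medians of the list were 0.11 and 0.07. Between high and normal RVSP mice 4 of the 10 were above 0 (51.7% of all). In any comparison, 0 had an unadjusted limma p under 0.05 (2.62% to 5.92% of all).

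Of 13 tested TGF-beta-induced genes (14 listed), 9 were above 0 in normal RVSP and 5 in high RVSP mice against controls (medians 0.16 and -0.06). Ccn2, a matricellular protein, read 7735 and 8431 in control lungs, 10641 and 8726 in R899X lungs at normal RVSP and 6354 and 7107 in those at high RVSP. Both high RVSP mice were below the other 4, with a difference from normal RVSP mice of -0.52 ± 0.16 (adjusted p = 0.9996 in limma). Itgb6, an epithelial integrin subunit that activates latent TGF-beta, read 107 and 233 in control lungs, 189 and 511 in R899X lungs at normal RVSP and 558 and 385 in those at high RVSP. Both high RVSP mice were above both controls, by 1.45 ± 0.48 (adjusted p = 0.857 in limma), and control 1 and R899X normal RVSP 1 were again its lowest arrays.

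Profiles over 6 arrays are easily matched. For the brightest probe set of each tested gene, the most alike probe set of another gene had a Pearson r between 0.984 and 0.998 over the 6 arrays, and 13 to 138 candidate probe sets reached 0.95. The closest were Atp13a2 and Senp8 for Smad1, Setdb1 and Sh3kbp1 for Smad2, Enah and Esrp2 for Smad3, Rps9 and Styx for Smad4, Magi1 and Cfap65 for Smad5, Fam207a and Hax1 for Smad6, and Fam193a and Mau2 for Smad7. The profiles share the same 6 arrays and their quality differences.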

How the data were processed

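The authors deposited intensities on a linear scale, with a value for every probe set on each array. The sources used here do not say how probe brightness was summarised into them. Each array was an individual mouse, per the labels, and replicates 1 and 2 follow accession order only. Gene names came from the platform annotation, and all 8 Smad gene identifiers matched RefSeq symbols. Values were turned into log2(intensity + 16). After leaving out 64 control probe sets and the lower 40% by mean (18015), 27022 were tested. A model with a mean for each group was fitted over the 6 arrays in limma 3.58.1 (R 4.3.3), with an intensity trend, 3 residual and 5.06 prior degrees of freedom and two-sided tests. An exact permutation test cannot go below p = 0.333 for 2 against 2 arrays or p = 0.0667 for 4 against 2, so none was used. The procedure was tested on simulated data. All Smad probe sets were described, with list genes named by smallest p. The members and lists were chosen with earlier results of these data known. Alternatives covered pseudocounts, filters, scaling, variance models, samples, the beta-actin ratio and left-out arrays.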

Additional observations from a re-analysis of the deposited data

Results flagged for a closer look

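Over the 4 R899X arrays together, 2 of the 18 Smad probe sets had an array far from the rest, both times R899X normal RVSP 1 as the lowest. On Smad5 1421047_at the gap to the next array was 0.978 of the whole range, and on Smad1 1459843_s_at it was 0.915, above the 95% critical value of Dixon's test for 4 samples, which chance exceeds in about 1 of 20 groups. That array had a beta-actin 3'/5' ratio of 1.64, against 1.27 to 1.36 on the other 3 R899X arrays, and its part in these gaps was not tested. Dixon's test treats the 4 arrays as 1 group, although they come from 2 groups of R899X mice. The share of all probe sets above the critical value is not given here.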

How the results depend on the processing

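In each comparison, 0 Smad probe sets passed the adjusted threshold under the alternative settings that kept 2 arrays in every group. Of all probe sets 0 passed under them as well, apart from 1 of 27022 in 1 fit. That fit was of R899X high RVSP mice against controls with only these groups included. In some fits that left a group with 1 array, probe sets of other genes did pass. For all R899X mice against controls the fit of only the compared groups is the main one. The 18 differences with groups that did not overlap or an unadjusted p under 0.05 kept their direction in 302 of 304 refits. The exceptions were Smad1 1416081_at and Smad5 1421047_at in R899X high RVSP mice against controls, at -0.0096 and -0.41 after adjustment for the beta-actin ratio. That ratio was higher in both controls than in both high RVSP mice, so the adjusted fit cannot fully tell it from the group. Filters, variance models and fits of only the compared groups left each difference as it was. Other pseudocounts or left-out arrays cannot reverse groups that do not overlap. All 18 differences were of such groups, so only scaling and the beta-actin ratio could have reversed one. Fits that left a group with 1 array assume that it varies like the others. No paired analysis was possible because the labels give the mice of different groups no shared numbers. With 2 arrays per group, changes smaller than the printed intervals were not detectable.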
